A study of Arabidopsis thaliana with 64 samples.

Results

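The strongly ABA-lowered probe sets are 79 of the 22746 non-control probe sets of an Affymetrix array for Arabidopsis thaliana, measured in roots. They were chosen from the intensities themselves. On a log2(value + 1) scale the mean of the 32 arrays with abscisic acid (ABA) lay at least 1.8 below the mean of the 32 arrays without it, and the difference was negative in each of the 16 combinations of the other signals. The rule found 82 probe sets, and 3 were left out by gene name. The ABA differences below are therefore a description of how the set was chosen, and no test of them is given. Of the 79 probe sets, 51 carried 1 gene in the array annotation, 2 carried several genes, and the others are given by their probe set IDs.

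The study was a full factorial of 5 signals in root growth medium. Plants were raised hydroponically with ammonium succinate as nitrogen source, held for 24 h without nitrogen and then treated for 4 h. Treated media held every combination of 1 µM ABA, 500 nM of the auxin indole-3-acetic acid (IAA), 500 nM of the cytokinin kinetin, nitrate and ammonium. Nitrate or ammonium was given at 1 mM, or both at 0.5 mM, with KCl and DMSO as the mock additions. There were 32 groups of 2 arrays, numbered as replicates, and no label states that the 2 were separate cultures. A p-value here measures the spread among these arrays alone, possibly of technical origin, and their number limits the precision.

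ABA is a plant hormone that accumulates under water shortage and salt. In the core pathway, ABA-bound receptors of the PYR/PYL family inhibit clade A protein phosphatases of type 2C, which releases SnRK2 kinases to act on bZIP transcription factors and ion channels. In roots ABA is known for curbing growth, for acting on root hairs and lateral roots and for suberin deposition in the endodermis. Auxin and cytokinin are the main hormones of root patterning, and nitrate and ammonium act both as nutrients and as signals.

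Array medians on the log2 scale had a lowest, median and highest value of 6.70, 7.37 and 8.13 with ABA, and of 6.95, 7.58 and 8.25 without ABA. The mean array median was 0.18 lower with ABA. The 3'/5' signal ratio of the actin control probe sets, a measure of RNA and labelling quality, averaged 4.47 on the log2 scale with ABA and 4.47 without ABA. The same ratio of a second pair of actin controls averaged 6.11 with ABA and 6.56 without ABA, that of GAPDH 8.38 with ABA and 8.67 without ABA, and that of ubiquitin 3.74 with ABA and 3.59 without ABA. The part of these shifts in the members' values was not tested. The 3' signal exceeded the 5' signal of every control pair on every array. Log2 ratios ran from 3.48 to 5.85 for the first actin pair and from 4.32 to 11.75 for GAPDH. Similar means with and without ABA are therefore no sign of intact RNA. The median ABA difference over all 22746 probe sets was -0.19. In the limma fit 27.3% of all probe sets passed at an adjusted p under 0.05, with 18.8% lower with ABA and 8.48% higher. All 79 members were among the lower, which the rule made likely and from which nothing is read.

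Over the set the median ABA difference was -2.23, which is a 4.70-fold lower intensity with ABA, and the members ranged from -4.15 to -1.81. The difference was -2 or below for 57 members and -3 or below for 6. With ABA the mean level of a member lay between 3.76 and 12.32, and without ABA between 5.77 and 14.71. The set thus held both dim and very bright probe sets. With ABA, 44 members had a mean level under 7.45, the typical array median, while 70 had a mean level above it without ABA. In whole-root RNA, fewer cells of a type and less RNA per cell cannot be told apart.

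Values near the floor of the array limit many of these differences. With ABA 36 members averaged below 6.70, the lowest median of any array, and without ABA 4 did. For such members the size of the difference depends on how low intensities were summarised.

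**Figure D1:**
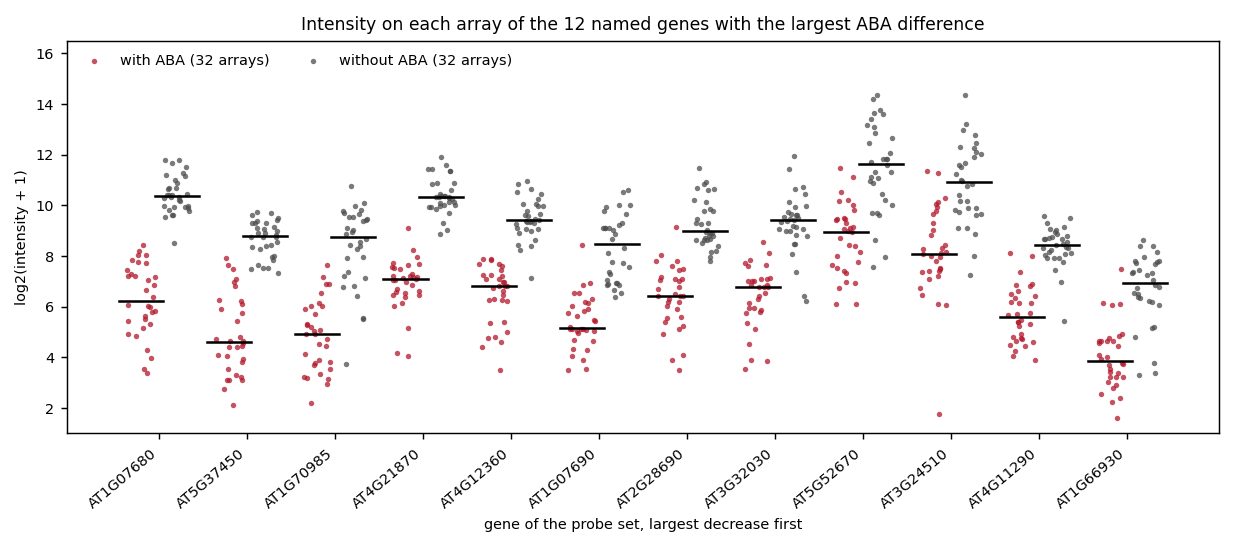
Level on each array, as log2(intensity + 1), of the 12 named genes with the largest ABA difference, with 32 arrays with ABA (red, left) and 32 without (grey, right) per gene and a bar at the median. The arrays with ABA lie lower throughout, with no overlap for AT1G07680, where the highest array with ABA is at 8.44 and the lowest without at 8.51.

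The gene with the largest difference was AT1G07680, for which no role is given here. Its levels had a lowest, median and highest value, the order kept below for each set of 3 levels, of 3.40, 6.23 and 8.44 with ABA, against 8.51, 10.37 and 11.78 without ABA. It lay above the median of its own array on 9 of 32 arrays with ABA, against 32 of 32 without. No array with ABA reached the lowest array without it, and the mean difference was -4.15, or 17.8-fold. With ABA alone its 2 arrays read 5.53 and 7.20, against 11.20 and 11.27 in the mock group.

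Complete separation of this kind was rare. AT1G07680, AT5G28630 and AT4G15390 were the members without overlap between the 32 arrays with ABA and the 32 without, and 5 probe sets of all 22746 (0.0220%) had this property. AT4G15390, of the BAHD acyltransferase family of specialised metabolism, stayed bright throughout. Its levels were 7.92, 9.26 and 10.17 (lowest, median, highest) with ABA, against 10.41, 11.51 and 12.27 without ABA. It was above the array median on all 32 arrays with ABA and on all 32 without, so its difference of -2.23 does not rest on values near the floor. AT5G28630, a glycine-rich protein, had a lowest, median and highest level of 6.20, 8.27 and 9.26 with ABA, against 9.41, 10.74 and 12.31 without ABA.

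Receptor-like kinases, membrane proteins that sense ligands outside the cell, formed a group of 6 members by their general annotation, with a median ABA difference of -2.36 and a range of -3.80 to -1.85. AT5G37450, a leucine-rich repeat kinase, had levels of 2.12, 4.59 and 7.92 with ABA, against 7.32, 8.80 and 9.74 without ABA. The groups overlapped on few arrays, since 29 of 32 arrays with ABA lay below every array without it. Its difference was -3.80, or 13.9-fold, and it exceeded the array median on 1 of 32 arrays with ABA, against 31 of 32 without.

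The other kinases were less extreme. AT1G66930 read 1.63, 3.87 and 7.50 with ABA, against 3.32, 6.94 and 8.63 without ABA, a difference of -2.68. It was dim in general and exceeded its array's median on 0 arrays with ABA and on 8 without, so its fold is among the least certain. AT5G59680, another leucine-rich repeat kinase, was brighter, with 6.30, 8.03 and 9.09 with ABA, against 8.75, 10.08 and 10.85 without ABA. AT1G61500, with an S-locus lectin domain outside the cell, differed by -2.43. AT5G49770 differed by -2.29 and AT4G18250, which joins a kinase to a thaumatin-like domain, by -1.85.

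Proteins of the cell wall and cell surface were the largest group given a role, with 8 members, a median difference of -2.48 and a range of -3.52 to -1.81. AT1G70985, a hydroxyproline-rich glycoprotein of the wall, read 2.20, 4.92 and 7.64 with ABA, against 3.74, 8.76 and 10.78 without ABA. Its groups overlapped on many arrays, as several arrays without ABA were low. AT4G12360, a lipid transfer protein, read 3.51, 6.82 and 7.88 with ABA, against 7.14, 9.41 and 10.95 without ABA, a difference of -3.01, and 22 of 32 arrays with ABA lay below every array without it. AT4G11290 is a class III peroxidase, one of the secreted enzymes that cross-link or loosen wall polymers. It read 3.88, 5.58 and 8.11 with ABA, against 5.44, 8.46 and 9.58 without ABA, a difference of -2.69.

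AT4G24780, a pectate lyase that cleaves the pectin of the wall, was clearly above the array median without ABA, with 6.79, 7.97 and 9.24 with ABA, against 8.88, 10.52 and 11.21 without ABA. Few arrays of the groups overlapped, and its difference was -2.35. AT4G08380, an extensin-like wall protein, differed by -2.07, and TBL45, of the family that acetylates wall polymers, by -2.01. AT5G19240, a membrane-anchored glycoprotein, was at the edge of the rule with -1.81 but was bright in both conditions, with medians of 9.54 with ABA and 11.33 without ABA.

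Small secreted or signalling proteins were 3 members. AT1G47400 encodes IRON MAN 1, a short peptide that switches on iron uptake genes in iron-poor roots. Its levels were 7.36, 9.91 and 12.30 with ABA, against 9.71, 12.07 and 13.58 without ABA, and the groups overlapped widely. AT3G24510, a defensin-like protein, varied widely, with 1.76, 8.09 and 11.35 with ABA, against 7.26, 10.91 and 14.36 without ABA. AT3G63360, also defensin-related, read 7.23, 8.52 and 9.95 with ABA, against 8.57, 10.88 and 13.56 without ABA.

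Specialised metabolism was represented by 4 members. AT3G32030, of the terpene synthase family, read 3.55, 6.79 and 8.54 with ABA, against 6.24, 9.41 and 11.97 without ABA, a difference of -2.90. Its probe set, 256560_s_at, carried a single gene in the annotation, and matches to related genes were not checked. AT3G44840, of the SABATH methyltransferase family that methylates small acids, differed by -2.23, as did AT4G15390 above. AT1G66800, an oxidoreductase similar to cinnamyl alcohol dehydrogenases of the lignin pathway, differed by -2.04.

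Redox and detoxification genes were 2 members. AT5G11930, a CC-type glutaredoxin of a plant-specific class, read 6.42, 8.71 and 10.16 with ABA, against 8.52, 10.84 and 13.93 without ABA. GSTU27, a tau-class glutathione S-transferase, read 7.15, 8.29 and 9.78 with ABA, against 8.97, 10.20 and 10.88 without ABA. The groups overlapped for both, and the differences were -2.32 for AT5G11930 and -1.85 for GSTU27.

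Of the regulators and chaperones, AT4G21870, a small heat shock protein, read 4.05, 7.08 and 9.12 with ABA, against 8.86, 10.32 and 11.90 without ABA. It overlapped at the margin and differed by -3.50. AT1G78020, an FCS-like zinc finger protein of the family that binds SnRK1 kinase, differed by -2.02.

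Some members lay close together on their chromosomes. By the order of protein-coding genes in RefSeq's TAIR10.1 annotation, 50 named members were located. In that order AT1G07680 and AT1G07690 were direct neighbours with 0 protein-coding genes between them. AT1G07690 read 3.48, 5.17 and 8.46 with ABA, against 6.38, 8.49 and 10.62 without ABA, a difference of -2.96. The heavy-metal-associated domain proteins AT5G52670 and AT5G52690 had 1 protein-coding gene between them. AT5G52670 was bright without ABA, with 6.09, 8.97 and 11.46 with ABA, against 7.55, 11.65 and 14.35 without ABA, whereas AT5G52690 had the lowest mean of the set, 3.76 with ABA and 5.77 without ABA. The C1-domain proteins AT3G11370, with a difference of -2.04, and AT3G11390, with -1.92, had 2 protein-coding genes between them.

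For 22 of the 51 named genes no role is given here, and they include the brightest named ones. AT5G66985 had the highest mean level of all 79 members without ABA, with 9.37, 12.69 and 14.49 with ABA, against 12.84, 14.84 and 16.31 without ABA, a difference of -2.39. AT1G64405 and AT1G59171 followed among the named genes, while some probe sets without a gene name, such as 258618_at, were brighter than both. AT1G64405 read 7.05, 9.56 and 12.28 with ABA, against 10.67, 12.63 and 14.69 without ABA. AT1G59171 read 7.84, 10.03 and 10.95 with ABA, against 9.74, 12.21 and 13.14 without ABA. These members overlapped between the groups and had medians far above the typical array median in both conditions. AT2G28690, also without a role given, read 3.49, 6.43 and 9.14 with ABA, against 7.81, 8.98 and 11.46 without ABA.

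At the threshold the values were continuous. The members nearest inside were AT4G24880, AT2G44580 and AT5G19240, each with -1.81. The nearest probe sets outside were 254687_at with -1.78, 267255_at with -1.78 and 266546_at with -1.77. Beyond these, 27 probe sets had a difference at or below the threshold but were not negative in every background.

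With ABA as the only added signal, both arrays lay below both mock arrays for 75 of the 79 members, against 29.1% of all probe sets, a count that the rule favours since these arrays were part of it. The 4 others were 246991_at, 259901_at, 260753_at and 265683_at. For 260753_at the arrays read 6.67 and 5.16 with ABA, against 9.45 and 4.68 in mock. Both arrays with ABA alone lay below both mock arrays for AT5G37450, with 2.74 and 6.97 with ABA, against 9.31 and 9.51 in mock. AT1G70985 read 3.17 and 6.04 with ABA, against 9.55 and 10.78 in mock. AT5G11930 read 7.59 and 9.49 with ABA, against 13.00 and 13.93 in mock. These 3 genes separated in the 4 arrays, while the spread within a pair reached several log2 units for AT5G37450.

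**Figure D2:**
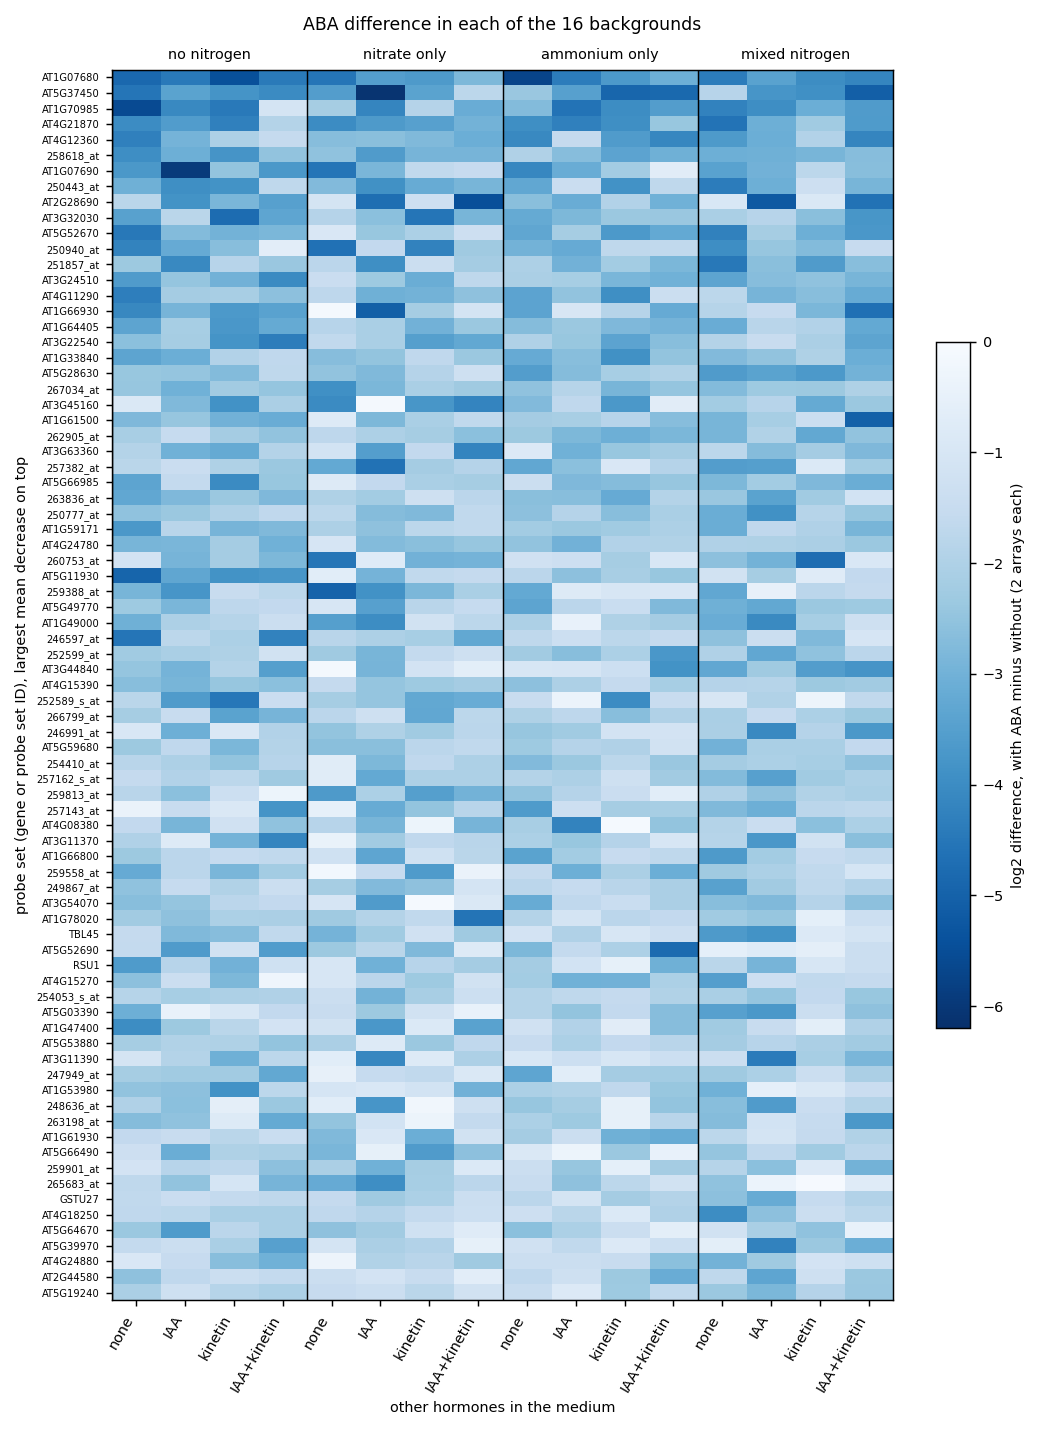
ABA difference of each of the 79 probe sets (rows, largest mean decrease on top) in each of the 16 backgrounds (columns), as log2 mean of 2 arrays with ABA minus log2 mean of 2 arrays without. Darker blue is a larger decrease; column medians run from -2.62 for nitrate only with IAA to -1.77 for nitrate only with no other hormone.

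The 16 backgrounds, each a combination of the other 4 signals, gave ABA differences of similar size for the set, as the map of differences by background shows. The median member difference was -2.44 in the background without any other signal, where 75 of 79 members were at or below -1. It was smallest in nitrate without other hormones, at -1.77, with 62 members at or below -1. The median over all probe sets in that background was +0.21, which was also the highest of the 16, and 18 members had their smallest decrease there. It was largest in nitrate with IAA, at -2.62, where the median over all probe sets was -0.67. In these extreme backgrounds the members' median thus moved the same way as the median over all probe sets, and the part of that shift in the members' values was not tested.

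Averaged over hormones, the median ABA difference of the set was -2.11 in nitrate only, -2.20 in ammonium only, -2.37 with both ions and -2.42 without nitrogen. The decrease was largest without nitrogen for 30 members, with both ions for 26, in nitrate only for 13 and in ammonium only for 10. With IAA the median was -2.31, against -2.18 without IAA, and 38 of 79 members had the larger decrease with IAA. With kinetin it was -2.12, against -2.32 without kinetin, and 32 members had the larger decrease with kinetin. These differences use the values that chose the set and were not tested.

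The ABA difference varied more over the 16 backgrounds for some members than for others. How much of this came from the spread between duplicate arrays was not tested. AT4G15390 had the smallest spread over the 16 backgrounds, with an SD of 0.38 and differences of -2.89 to -1.55. AT5G53880, for which no role is given here, had an SD of 0.41, and AT5G59680 an SD of 0.50. The most variable was AT2G28690 with an SD of 1.53. Its decrease averaged -4.18 with IAA, against -1.68 without IAA, and its extremes were -5.45 in nitrate with IAA and kinetin and -0.91 in mixed nitrogen with kinetin.

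AT1G66930 had an SD of 1.39, with differences of -5.05 to -0.14, and is dim. AT1G07690 had an SD of 1.30, with a mean decrease of -2.08 with kinetin, against -3.84 without kinetin. A spread this large rests on 2 arrays with ABA and 2 without in each background. The SD between the duplicates of a group was 0.97 for the median member and 0.88 for the median probe set of the array. Over the members it ran from 0.41 to 1.76.

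The other 4 signals were tested on the set, since their averages over arrays with and without ABA do not use the ABA differences of the rule. Each effect is the mean of 32 arrays with the signal minus 32 without in limma, with Benjamini-Hochberg adjustment over all 22746 probe sets, and a member passed at an adjusted p under 0.05. Of the 79 members, 54 passed for none of the 4 signals, 22 for 1 signal, 3 for 2 and 0 for 3. Over all probe sets 94.8% passed for none of the 4 signals, 4.31% for 1, 0.756% for 2 and 0.0879% for 3.

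**Figure D3:**
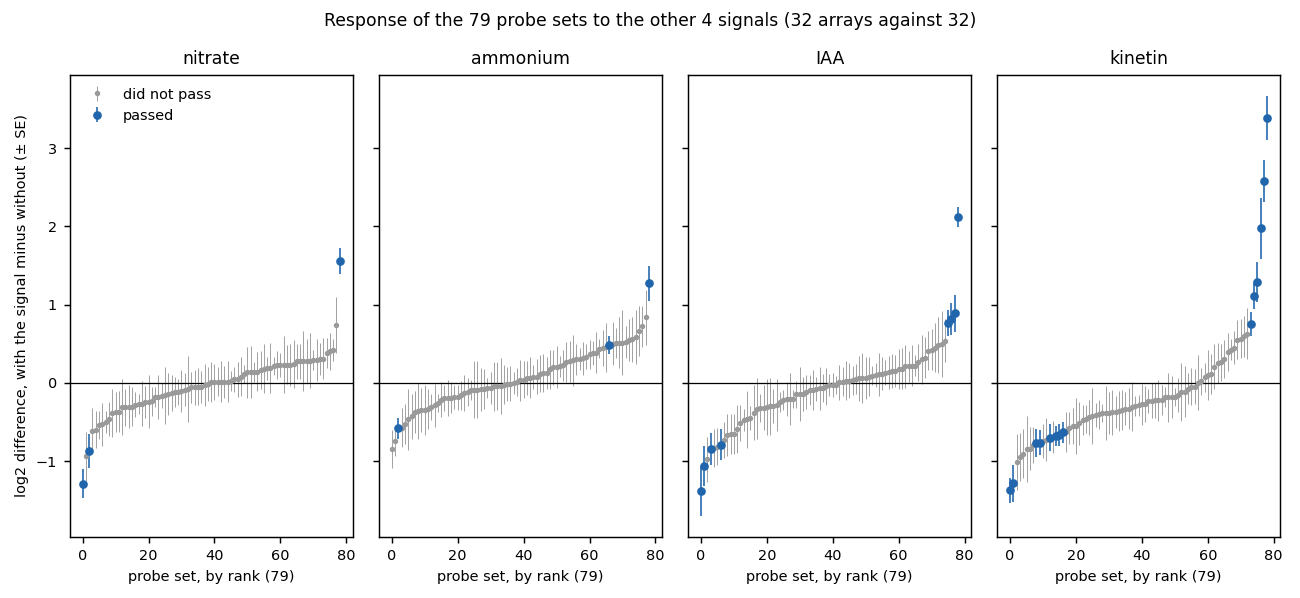
Effect of nitrate, ammonium, IAA and kinetin on each of the 79 probe sets, ranked within each panel, as log2 difference (with minus without) ± SE, 32 arrays against 32. Blue points passed at an adjusted p under 0.05: 3 for nitrate, 3 for ammonium, 8 for IAA and 14 for kinetin. The median kinetin effect was -0.29 over the set, against -0.02 over all probe sets.

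Kinetin changed 14 members, or 17.7%, of which 6 were higher and 8 lower, against 2.07% of all probe sets, 1.31% higher and 0.756% lower. The median kinetin effect of the set was -0.29, against -0.02 over all probe sets, and 57 of 79 members had a negative value. The matching share of negative values over all probe sets is not given here. Members also share variation between arrays, as differences between duplicates correlated at a mean r of 0.09 among members, against 0.05 over all probe sets. They are therefore not 79 separate observations. Among arrays with ABA the median kinetin effect of the set was -0.14, and among arrays without ABA it was -0.38. At an unadjusted p under 0.05, 11 members were higher and 26 lower, against 4.42% higher and 4.83% lower of all probe sets. The actin ratio averaged 4.58 with kinetin, against 4.35 without kinetin, a difference of 0.23 whose part in these results was not tested for the set as a whole. With that ratio as a covariate 15 members passed, against 423 of all probe sets (470 in the main fit). The shares over all probe sets include dim ones, whereas 70 members averaged above the typical array median without ABA. Without the dimmest 40% of probe sets 18 members passed for kinetin, against 508 of all those left. How many members the filter left is not given here, so no share of members follows from these counts.

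AT1G66800, the cinnamyl alcohol dehydrogenase-like gene, rose with kinetin in all 16 backgrounds. On arrays with ABA its lowest, median and highest levels were 7.13, 8.32 and 9.48 with kinetin, against 3.38, 5.84 and 7.44 without kinetin. On arrays without ABA they were 8.22, 9.93 and 11.57 with kinetin, against 6.36, 8.10 and 9.12 without kinetin. The lowest levels were those with ABA and no kinetin, and the median with both hormones was close to that with neither. The effect was 2.58 ± 0.27 (SE), or 5.97-fold, with an adjusted p of 9.58e-09 in limma.

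AT3G24510, the defensin-like gene, also rose with kinetin, by 1.97 ± 0.39 (SE; adjusted p = 0.00131 in limma), in 15 of 16 backgrounds. On arrays with ABA it read 7.36, 8.80 and 11.35 with kinetin, against 1.76, 7.43 and 10.05 without kinetin. On arrays without ABA it read 9.73, 11.99 and 14.36 with kinetin, against 7.26, 9.85 and 12.31 without kinetin. The columns overlapped, and one array with ABA and no kinetin lay far below the others.

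The largest kinetin effect was that of probe set 259388_at, which has no gene name here and is named after its values were seen. It rose by 3.39 ± 0.29 (SE), or 10.5-fold, with an adjusted p of 5.08e-11 in limma and the same direction in all 16 backgrounds. On arrays with ABA it read 6.93, 8.95 and 10.18 with kinetin, against 2.90, 4.48 and 7.00 without kinetin. On arrays without ABA it read 9.06, 10.40 and 11.43 with kinetin, against 3.98, 8.15 and 9.71 without kinetin. The other unnamed probe sets that rose were 250940_at by 1.29, 258618_at by 1.11 and 266799_at by 0.75.

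Among the named genes that fell with kinetin, AT3G22540 had the largest change, -1.37 ± 0.16 (SE; adjusted p = 8.26e-08 in limma), in 15 of 16 backgrounds. With ABA it read 5.96, 7.50 and 8.60 with kinetin, against 8.85, 9.39 and 9.94 without kinetin, with no overlap. Without ABA it read 9.70, 10.53 and 12.03 with kinetin, against 10.10, 11.38 and 12.06 without kinetin, with wide overlap. The kinetin effect was -2.01 on arrays with ABA, against -0.74 without ABA, a difference that was not tested because it uses the ABA differences of the rule.

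AT1G07690, the neighbour of AT1G07680, had the reverse arrangement. Its kinetin effect was -0.41 on arrays with ABA, against -2.17 without ABA, with an average of -1.29 ± 0.24 (SE; adjusted p = 0.000491 in limma). Without ABA it read 6.38, 7.00 and 8.89 with kinetin, against 8.12, 9.26 and 10.62 without kinetin, and few arrays overlapped. With ABA it was close to the floor, at medians of 5.12 with kinetin and 5.54 without kinetin. AT5G28630, the glycine-rich protein, fell by 0.77 ± 0.18 on the log2 scale (SE; adjusted p = 0.0128 in limma). The remaining 5 members that fell were probe sets without a single gene name, with changes of -0.77 to -0.63.

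**Figure D4:**
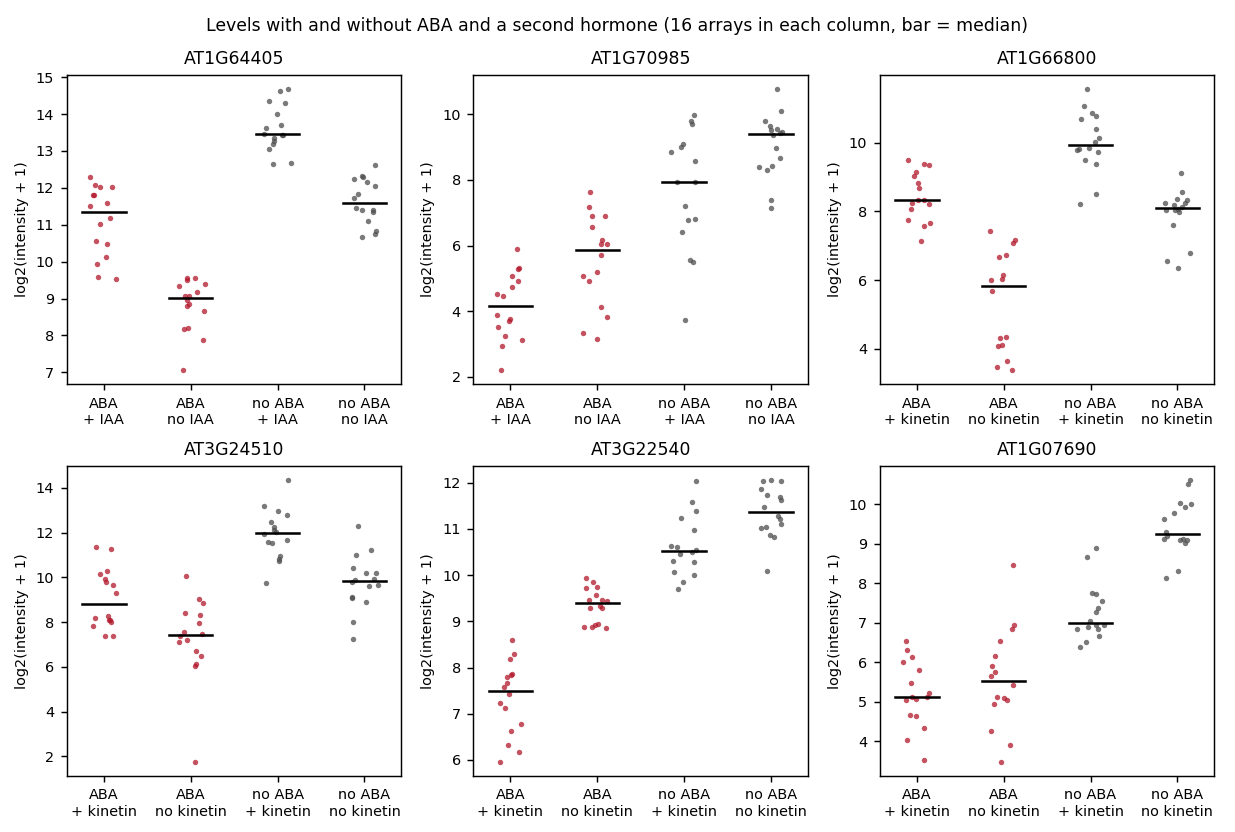
Levels on each array, as log2(intensity + 1), of 6 members in the 4 combinations of ABA with IAA (AT1G64405, AT1G70985) or with kinetin (AT1G66800, AT3G24510, AT3G22540, AT1G07690), 16 arrays per column and a bar at the median. The median of AT1G64405 was 11.34 with ABA and IAA, 9.01 with ABA alone of the pair, 13.45 with IAA alone and 11.60 with neither.

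IAA changed 8 members, 4 higher and 4 lower, against 2.65% of all probe sets, 1.27% higher and 1.38% lower. The median IAA effect of the set was -0.03, against -0.02 over all probe sets. The actin ratio averaged 4.65 with IAA, against 4.29 without IAA, the largest shift of this ratio with any signal. When it entered the fit as a covariate 5 members passed, against 410 of all probe sets. When the array median entered instead 14 members passed, against 1123 of all probe sets. In the main fit 603 of all probe sets passed. Without the dimmest 40% of probe sets 9 members passed for IAA, against 636 of all those left. No share of members follows from these counts either. EXPA18, a root hair expansin that is no member, was 0.68 ± 0.13 lower with IAA (difference -0.68; adjusted p = 0.00126 in limma). The other root hair genes named on the array, EXPA7 with -0.24 and SCN1 with -0.07, did not pass for IAA (adjusted p = 0.376 and 0.853 in limma). The part of the actin ratio or of these genes in these results was not tested for the set as a whole.

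AT1G64405 rose with IAA in all 16 backgrounds, by 2.12 ± 0.13 (SE), or 4.35-fold, with an adjusted p of 1.04e-14 in limma. On arrays with ABA its levels were 9.54, 11.34 and 12.28 with IAA, against 7.05, 9.01 and 9.57 without IAA. On arrays without ABA they were 12.65, 13.45 and 14.69 with IAA, against 10.67, 11.60 and 12.62 without IAA. Within either ABA condition the columns with and without IAA overlapped little or not at all, and the median with both hormones was near that with neither.

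AT1G70985, the hydroxyproline-rich glycoprotein, fell by 1.38 ± 0.32 on the log2 scale with IAA (SE; adjusted p = 0.00675 in limma), in all 16 backgrounds. With ABA it read 2.20, 4.16 and 5.90 with IAA, against 3.17, 5.88 and 7.64 without IAA. Without ABA it read 3.74, 7.94 and 9.97 with IAA, against 7.15, 9.41 and 10.78 without IAA. Both IAA and ABA were thus accompanied by lower levels of this gene, and its lowest column was that with both. With the actin ratio as a covariate its effect was -1.36 ± 0.39 and no longer passed (adjusted p = 0.061 in limma). With a pseudocount of 64 in place of 1 the effect was -0.76 and passed (adjusted p = 0.00634 in limma). Its size thus depends on the pseudocount, and the gene exceeded its array's median on 0 of 32 arrays with ABA.

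The other named genes changed less. AT3G63360, defensin-related, rose by 0.82 ± 0.20 (SE; adjusted p = 0.0155 in limma), with an effect of 0.30 on arrays with ABA and 1.33 without ABA. AT3G11370, a C1-domain protein, fell by 0.85 ± 0.20 on the log2 scale (SE; adjusted p = 0.0107 in limma). With the actin ratio as a covariate it had -0.62 ± 0.24 and an adjusted p of 0.259 in limma. With a pseudocount of 64 it had -0.45 ± 0.13 and an adjusted p of 0.0325 in limma. AT4G08380, the extensin-like protein, fell by 0.79 ± 0.20 on the log2 scale (SE; adjusted p = 0.0152 in limma), in 10 of 16 backgrounds. Its effect was -1.40 on arrays with ABA and -0.19 without ABA, a difference that was not tested. The effect was -1.26 with replicate 1 alone and -0.33 with replicate 2 alone. With a pseudocount of 64 in place of 1 its difference was -0.40 and the adjusted p 0.0678 in limma. The unnamed probe sets 250443_at, with 0.89, and 258618_at, with 0.77, rose, and 251857_at fell by 1.06 on the log2 scale.

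**Figure D5:**
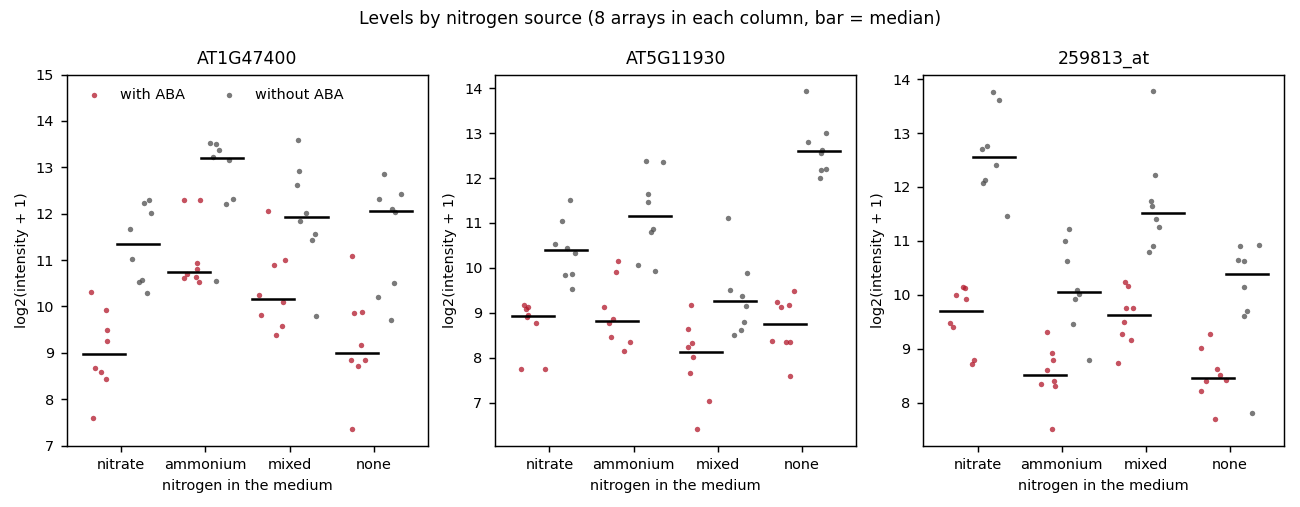
Levels on each array, as log2(intensity + 1), of AT1G47400, AT5G11930 and probe set 259813_at by nitrogen in the medium, with ABA (red, left) and without (grey, right), 8 arrays per column and a bar at the median. AT5G11930 without nitrogen had a median of 8.76 with ABA and 12.59 without ABA, the highest of its columns.

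Nitrate changed 3 members, 1 higher and 2 lower, against 0.884% of all probe sets, 0.545% higher and 0.339% lower. Ammonium changed 3, 2 higher and 1 lower, against 0.506% of all probe sets, 0.369% higher and 0.136% lower. In 8 of the 16 backgrounds adding 1 ion also lowered the other to 0.5 mM, so both averages carry this change of dose. The median effect over the set was 0.01 for nitrate, against 0.03 over all probe sets, and 0.03 for ammonium, against 0.06.

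AT5G11930, the glutaredoxin, fell with nitrate by 1.29 ± 0.19 on the log2 scale (SE; adjusted p = 2.33e-05 in limma), in 13 of 16 backgrounds. Without ABA its median was 10.39 in nitrate only, 11.17 in ammonium only, 9.26 with both ions and 12.59 without nitrogen. The 8 arrays without nitrogen and without ABA, at 12.00 to 13.93, lay above all arrays of the nitrate and mixed media without ABA. With ABA the medians were 8.92 in nitrate only, 8.82 in ammonium only, 8.12 with both ions and 8.76 without nitrogen. The nitrate effect was -0.53 on arrays with ABA, against -2.05 without ABA, and its ABA difference was -1.70 in nitrate only, -2.21 in ammonium only, -1.43 with both ions and -3.95 without nitrogen.

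AT5G39970, for which no role is given here, passed for nitrate with -0.88 ± 0.22 (SE; adjusted p = 0.0382 in limma). Leaving out 1 array ended that call for 34 of the 64 arrays. The unnamed probe set 259813_at was the member that rose with nitrate, by 1.56 ± 0.17 (SE; adjusted p = 4.31e-08 in limma), in all 16 backgrounds. Without ABA its median was 12.56 in nitrate only, 10.05 in ammonium only, 11.53 with both ions and 10.38 without nitrogen. With ABA the same order of nitrate over ammonium was seen, at 9.70 in nitrate only and 8.51 in ammonium only.

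AT1G47400, IRON MAN 1, rose with ammonium by 1.27 ± 0.22 (SE; adjusted p = 0.00103 in limma), in 14 of 16 backgrounds. With ABA its median was 8.97 in nitrate only, 10.75 in ammonium only, 10.17 with both ions and 9.00 without nitrogen. Without ABA it was 11.35 in nitrate only, 13.20 in ammonium only, 11.93 with both ions and 12.07 without nitrogen. The 8 arrays with ammonium only and ABA, at 10.53 to 12.30, lay above all 8 arrays with nitrate only and ABA, at 7.60 to 10.31.

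AT5G59680, the leucine-rich repeat kinase, passed for ammonium with 0.48 ± 0.12 (SE; adjusted p = 0.0429 in limma). Leaving out 1 array ended that call for 41 of the 64 arrays. AT1G64405 fell with ammonium by 0.58 ± 0.13 on the log2 scale (SE; adjusted p = 0.0177 in limma), in 11 of 16 backgrounds, beside its larger rise with IAA.

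Nitrate only was also set against ammonium only at the same 1 mM, 16 arrays against 16, which is free of the dose change. Of the set 2 members passed, 1 higher and 1 lower, against 0.391% of all probe sets, 0.242% higher and 0.149% lower. AT1G47400 was lower in nitrate by 1.73 ± 0.31 (difference -1.73; adjusted p = 0.0017 in limma). Probe set 259813_at was higher in nitrate by 1.76 ± 0.24 (adjusted p = 1.91e-05 in limma).

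None of the 6 interactions among nitrate, ammonium, IAA and kinetin passed for any member in limma, where 0.0132% of all probe sets passed for nitrate with ammonium, 0.00879% for IAA with kinetin and 0% for each of the other pairs. At an unadjusted p under 0.05 there were 10 members for nitrate with ammonium, against 7.02% of all probe sets, and 15 for nitrate with kinetin, against 13.8%. There were 12 members for IAA with kinetin, against 7.00% of all probe sets, and 5 for ammonium with kinetin, against 3.64%. There were 3 for ammonium with IAA, against 3.58%, and 1 for nitrate with IAA, against 2.91%. The median of the set was 0.49 for nitrate with kinetin, against 0.24 over all probe sets, and -0.27 for nitrate with ammonium, against -0.06. It was -0.19 for IAA with kinetin, against -0.18, and 0.09 for ammonium with kinetin, against 0.05. It was -0.05 for ammonium with IAA, against 0.07, and -0.07 for nitrate with IAA, against 0.03. The part of the shift over all probe sets in the members' values was not tested.

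Genes of other cell types and of ABA signalling were looked up by name beside the set. Of 26 root hair genes, 3 were named on the array and none is a member. EXPA7, an expansin of root hairs, read 7.74, 9.04 and 10.27 with ABA, against 8.68, 9.60 and 10.47 without ABA, and fell by 0.51 ± 0.11 on the log2 scale (SE; adjusted p = 0.000724 in limma). EXPA18, its close relative, fell by 0.47 ± 0.13 on the log2 scale (SE; adjusted p = 0.00735 in limma). SCN1, which restricts where hairs emerge, had 0.01 ± 0.09 (SE; adjusted p = 0.931 in limma).

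The log2 summed intensity of these 3 genes ranged over 9.95 to 11.63 with ABA, against 10.63 to 11.73 without ABA. The part of these 3 genes' changes in the members' decrease was not tested. Of 4 green tissue genes 2 were named. LHCB4.1, which binds chlorophyll in the photosystem antenna, was higher by 0.84 (adjusted p = 0.00906 in limma), and RCA, which activates Rubisco, had -0.05 (adjusted p = 0.859 in limma), with a summed log2 intensity of 7.61 to 10.21 with ABA, against 7.18 to 10.10 without ABA. The lists of ABA receptors, ABA phosphatases, ABA kinases and transcription factors, endodermis, xylem, root cap, phloem and stele, and meristem had 0 genes named on the array in the annotation used, so none of them was analysed here.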

How the data were processed

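Root RNA of Arabidopsis thaliana was measured on 64 Affymetrix arrays, 1 per sample, each with 22810 probe sets. The deposited values are linear intensities, 1 summary per probe set and array. How the authors summarised and background-corrected the probes is not given in the sources used here. Array medians ranged from an intensity of 103 to 303. Group and dose of every array come from the labels, and 0 columns were left unused.

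The deposited intensities were transformed to log2(value + 1) with a pseudocount of 1, and fold changes are on that scale. For dim probe sets the size of a change depends on the pseudocount. The 64 control probe sets were left out and dim probe sets were kept. R 4.3.3 and limma 3.58.1 fitted a mean for each of the 32 groups; the moderated variance had 32 residual and 3.83 prior degrees of freedom. Benjamini-Hochberg adjustment ran over 22746 probe sets, with a threshold of 0.05. The fit was tested on simulated data. Tables were made with Python 3.11.15.

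The members, lists and tests were chosen with earlier results of these data known. Named genes were those with 1 gene in the array annotation and the 12 largest ABA differences, up to 10 passing members per signal and direction, the 3 brightest without ABA, the 3 on either side of the threshold, the 3 most and 3 least even over backgrounds, list genes and group examples. Roles are general annotation of gene families, assigned after the members were known. Annotation gave 1 gene for 13513 probe sets, of which 13436 matched the RefSeq table of TAIR10.1, several for 503 and no name for 8730. Planned comparisons of promoter and protein sequences were not run and no sequence is printed. The alternatives tried were quantile normalization, a pseudocount of 64, a filter on dim probe sets, array median or actin ratio as a covariate, a replicate block, each replicate number alone, and leaving out single arrays or the 6 of extreme median.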

Additional observations from a re-analysis of the deposited data

How the results depend on the processing

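The number of members that passed moved by over 1.5 times in a few settings. With the array median as a covariate it was 5 for nitrate (3 in the text), 14 for IAA (8) and 4 for nitrate only against ammonium only (2). Over all probe sets 348 passed for nitrate with that covariate (201 in the main fit), and 1123 passed for IAA (603). For nitrate only against ammonium only 198 of all probe sets passed (89 in the main fit). With the actin ratio as a covariate 5 members passed for IAA, against 410 of all probe sets. With a pseudocount of 64 the number of members passing was 5 for ammonium (3), against 177 of all probe sets (115 in the main fit). With that pseudocount the rule itself found 37 members, all among the 79, while quantile normalization gave 63 members, 62 of them shared. With replicate 1 alone it was 0 for ammonium and 1 for the nitrogen source. With replicate 2 alone it was 1 for nitrate, 1 for ammonium, 2 for IAA, 7 for kinetin and 1 for the nitrogen source; these fits hold fewer arrays.

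Leaving out each array in turn gave 2 to 4 members for nitrate, 2 to 5 for ammonium, 7 to 12 for IAA, 14 to 17 for kinetin and 2 to 3 for the nitrogen source. The 5 for ammonium came without replicate 1 of ammonium with IAA and ABA. Without that array 1 member passed for ammonium with kinetin, against 0 to 0 for the other 5 interactions and any array left out.

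The labels do not say that a replicate number marks a shared culture or day. Deviations of arrays with the same number correlated between groups at -0.26 to 0.42, with a median of 0.05. The numbers were not taken as pairs in the main fit, a choice that this median alone does not settle. Some errors were smaller with the block, as for AT1G70985 with IAA, whose SE was 0.22 with it and 0.32 without it. With the replicate block 4 members passed for nitrate, 4 for ammonium, 12 for IAA and 19 for kinetin. For the nitrogen source 3 members passed, and 0 did for each interaction. Over all probe sets the block gave 254 for nitrate (201 in the main fit), 173 for ammonium (115) and 721 for IAA (603). It gave 558 for kinetin (470) and 120 for the nitrogen source (89), so all of these rose with the block. For the 16 effects of named genes, 143 values under other settings kept their direction, and 26 of them no longer passed, none reversed. Besides the calls given above, AT5G39970 and AT5G59680 missed the threshold once the actin ratio entered the fit (adjusted p = 0.184 and 0.0573 in limma) or without the 6 arrays of extreme median (0.103 and 0.226). The cause was not tested. Dim probe sets limit the size of the ABA difference, as 36 members averaged below every array median with ABA.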
